A study of Solanum lycopersicum with 9 samples.

Results

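The regions described here are places where tomato leaves without DDM1 had an H3K9ac peak that wild-type leaves lacked, inside chromatin that carried H3K27me3 in the wild type. They were chosen by 3 peak lists. A member is a *ddm1* H3K9ac peak on chromosomes 1 to 12 that shares no bp with a wild-type (WT) H3K9ac peak and at least 1 bp with a WT H3K27me3 peak. Of 76513 *ddm1* H3K9ac peaks, 44329 (57.9%) had no bp in a WT H3K9ac peak, and 2051 of these (4.63%) lay in WT H3K27me3. Those 2051 peaks are called new H3K9ac sites below. They fell in 1800 of the 35712 WT H3K27me3 peaks (5.04%), which are called gaining WT peaks, and the remaining 33912 are called other WT peaks. All of these counts follow from the rule and describe the lists. The WT H3K9ac list was shorter, with 42622 peaks, and when lists were cut to equal size by their strongest peaks, 637 sites were left.

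The study profiled histone H3 marks by chromatin immunoprecipitation and sequencing (ChIP-seq) in leaves (the fourth leaf) of plants grown for 1 month. WT was the tomato cultivar M82, and *ddm1* was the *Slddm1a/Slddm1b* double mutant, in which both tomato copies of DDM1 are knocked out. Both genotypes were sown on soil and kept in the same kind of growth chamber. The 9 libraries covered 4 marks, with 1 library per genotype for H3K9ac, H3K9me2 and H3K27me1, 1 WT library for H3K27me3 and 2 *ddm1* libraries for H3K27me3.

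H3K27me3 is deposited by the Polycomb repressive complex PRC2 and marks facultative heterochromatin, in plants often over genes that are silent in a given tissue. H3K9ac is placed by histone acetyltransferases, is found mostly at the starts of transcribed genes, and is removed by histone deacetylases. The marks usually characterize opposite chromatin states, and DDM1 is a chromatin remodeller that allows DNA methylation to be maintained in compact heterochromatin. Leaves hold many cell types, so whether both marks lay on the same chromatin fibre or in different cells cannot be told apart in these libraries.

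One list needs a caution before the results. The *ddm1* H3K27me3 replicate 2 list was deposited under a name that gives the WT genotype, and its peaks are named in the same way, whereas its label gives *ddm1*. It was kept as labelled. It covered 128 Mb, compared with 23.6 Mb in replicate 1 and 42.8 Mb in WT, and it contained 2553 peaks of more than 10 kb, whereas the other H3K27me3 lists contained none. By position it resembled replicate 1. The central 50% of the chromosomes held 53.4% of its peaks, 47.2% of the replicate 1 peaks and 23.8% of the WT peaks, and 79.6% of the bases of replicate 1 were shared with it. By the Jaccard index (shared length over the length covered by either list) the replicates had 0.142 in common, and WT had 0.214 in common with replicate 1 and 0.104 with replicate 2. The results on *ddm1* H3K27me3 are therefore given by replicate, and means of both are named as means. Shares of peaks are given with 95% Wilson intervals and differences between shares with 95% Newcombe intervals. These intervals treat peaks as independent and cover counting error only, and since most groups had 1 library they do not measure variation between plants.

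The new H3K9ac sites were short and weak peaks. Their median width was 271 bp (95% interval of the median 262 to 280, central 50% of peaks 192 to 426), and 587 of them (28.6%) were at most 200 bp wide, close to the 150 bp to which the authors extended reads. Only 62 (3.02%) reached 1 kb. The median depends on the length of the lists and was 462 bp for the 637 sites left at equal list sizes. Among new H3K9ac peaks outside WT H3K27me3, of which there were 42278, the median was 308 bp and 5.93% reached 1 kb. The 4952 H3K9ac peaks in WT H3K27me3 that overlapped a WT H3K9ac peak, called kept H3K9ac peaks, had a median of 538 bp, and 20.4% of them reached 1 kb. The order was the same for strength. The fold enrichment at the summit, a ratio over the local background of the peak caller, had a median of 2.66 at the new sites (central 50% 2.35 to 3.12), 2.93 at new peaks elsewhere and 3.61 at kept peaks in WT H3K27me3. The median −log10 q was 4.64, 5.16 and 11.10 in the same order. New sites were therefore nearer to the calling threshold (q of 0.05) than kept peaks at the same kind of chromatin. A WT peak that was just missed counts as absent under the rule.

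**Figure D1:**
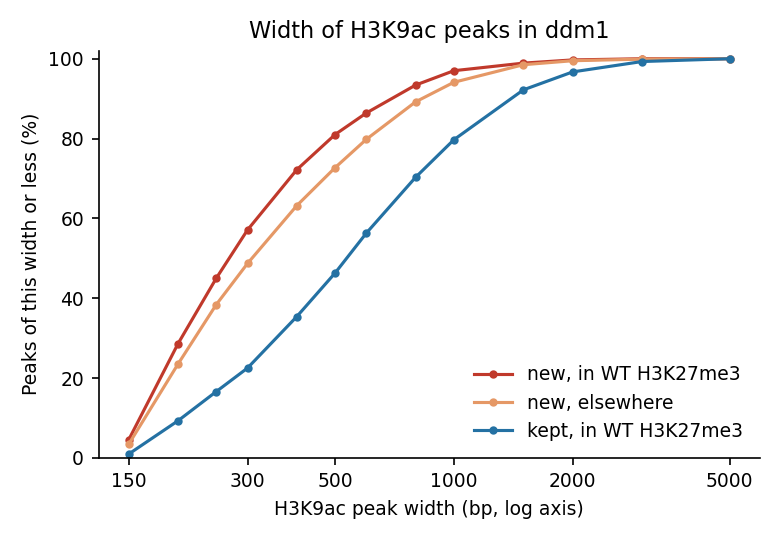
Cumulative share of *ddm1* H3K9ac peaks (%, y axis) up to a given width (bp, log x axis) for new sites in WT H3K27me3 (2051), new peaks elsewhere (42278) and kept peaks in WT H3K27me3 (4952). The curve of the new sites lies above the others at widths up to 1 kb: 57.1% of them were at most 300 bp and 81.0% at most 500 bp wide.

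The new sites were spread along the WT H3K27me3 peaks. In all, 1269 (61.9%) were entirely inside a WT H3K27me3 peak, 1775 (86.5%) had at least 50% of their length inside, and 595 of their 745 kb (79.9%) was WT H3K27me3. The summit was inside a WT peak at 1810 sites (88.2%). Of these summits, 859 (47.5%) were in the central 50% of the WT peak and 407 (22.5%) in the outermost 10% at either end, and the median distance to the nearest edge was 316 bp. Neither the centre nor the margin held a share of the summits far from its share of the length. Most gaining WT peaks held a single new site: 1580 held 1, 188 held 2, 29 held 3 and 3 held 4, and 4 sites touched a pair of WT peaks.

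Gaining WT peaks were wider than other WT peaks but of equal fold enrichment. Their median width was 1602 bp (central 50% 800 to 2498), compared with 879 bp (420 to 1710) for other WT peaks, and the median fold was 1.93 in both. The median −log10 q was 4.20 and 3.27. The share of WT peaks with a new site was higher in wider classes, from 2.41% of peaks under 500 bp through 3.64%, 5.68% and 9.38% to 19.1% of peaks of 4 kb or more. Since the rule asks for 1 bp of overlap, a longer peak meets it more often, and both the rise and the greater width are built in to that extent. Per Mb of WT H3K27me3 there was no such rise: 53.2 summits of new sites per Mb fell in WT peaks under 500 bp, 47.5, 40.5 and 39.3 in the next 3 classes and 50.8 in peaks of 4 kb or more. WT H3K9ac was equally frequent in both sets: 349 gaining WT peaks (19.4%) and 6484 other WT peaks (19.1%) also overlapped a WT H3K9ac peak.

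Along the chromosomes the new sites had the distribution of WT H3K27me3 and not that of the other new H3K9ac peaks. The central 50% of the chromosomes, which in tomato is largely pericentromeric and poor in genes, held 25.3% (23.4 to 27.2) of the new sites and 61.6% (61.2 to 62.1) of new H3K9ac peaks elsewhere. It held 23.8% of all WT H3K27me3 peaks. Since the rule places the sites in WT H3K27me3, this likeness is largely built in. Within WT H3K27me3, 25.4% of gaining and 23.7% of other WT peaks were central, a difference of 1.74 percentage points whose interval includes 0 (−0.275 to 3.85). The median distance from a new site to the nearer chromosome end was 8.61 Mb (central 50% 3.97 to 16.8), compared with 20.3 Mb (12.8 to 27.3) for new H3K9ac peaks elsewhere.

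**Figure D2:**
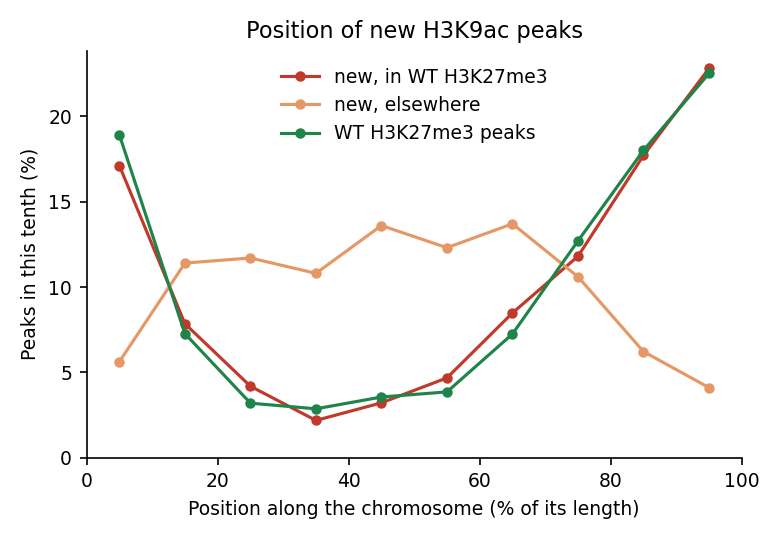
Share of peaks (%, y axis) in each of 10 equal bins from 0 to 100% of the chromosome's length (x axis), pooled over 12 chromosomes, for new H3K9ac sites in WT H3K27me3, new H3K9ac peaks elsewhere and all WT H3K27me3 peaks. The new sites follow the WT H3K27me3 curve, with 17.1% in the first bin, 22.8% in the last and 2.19% at the lowest point.

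All 12 chromosomes carried new sites, from 117 on chromosome 10 to 266 on chromosome 1. Per Mb the range was 1.77 on chromosome 10 to 3.50 on chromosome 2. The share of WT H3K27me3 peaks that gained H3K9ac ranged from 3.83% (3.18 to 4.62) on chromosome 10 to 5.76% (4.96 to 6.68) on chromosome 8. These are the lowest and highest of the 12 chromosomes, and their intervals, which do not overlap, make no allowance for that choice. As a share of the new H3K9ac peaks, the sites ranged more widely, from 3.06% on chromosome 10 to 7.68% on chromosome 2.

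The sites were nearer to acetylation already present in WT than other new H3K9ac peaks were. The median distance from a new site to the nearest WT H3K9ac peak was 2997 bp (central 50% 756 to 10906), compared with 50695 bp for new H3K9ac peaks elsewhere. A WT H3K9ac peak was within 1 kb of 627 new sites (30.6%), on both sides of 87 of them, and 550 sites (26.8%) were more than 10 kb away. Of the new peaks elsewhere, 5.17% were within 1 kb and 82.5% beyond 10 kb. The contrast was also present within chromosome regions. Outside the central 50%, 32.7% of the new sites and 11.6% of new peaks elsewhere were within 1 kb of WT H3K9ac, and in the central 50% the values were 24.3% and 1.15%. WT H3K9ac was about as frequent 1 kb from the midpoint of other WT peaks (7.61% of positions) as 1 kb from a new summit (8.34%). At 0.5 kb the shares were 7.43% and 5.27%, and the rule keeps WT H3K9ac off the sites themselves. Such shares are not distances to the nearest peak. The rule also places the sites in WT H3K27me3, and the cause of their nearness to WT H3K9ac was not tested. The WT peak of 399 new sites itself overlapped WT H3K9ac.

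The next comparison asked whether H3K27me3 stayed at these places in *ddm1*. It used the *ddm1* H3K27me3 lists, which did not enter the choice of sites. H3K27me3 was called again more often at WT peaks that gained H3K9ac than at those that did not. In replicate 1, 967 of 1800 gaining WT peaks (53.7%, 51.4 to 56.0) overlapped a *ddm1* H3K27me3 peak, compared with 31.5% (31.0 to 32.0) of other WT peaks and 32.6% of all WT peaks. The difference was 22.2 percentage points (19.8 to 24.6). In replicate 2, 1018 gaining WT peaks (56.6%, 54.3 to 58.8) were overlapped, compared with 37.5% (37.0 to 38.1) of other WT peaks and 38.5% of all WT peaks, a difference of 19.0 points (16.7 to 21.3). Over both replicates the shares were 55.1% ± 2.0 (SD, n = 2) and 34.5% ± 4.26 (SD, n = 2), and the difference was 20.6 ± 2.26 points (SD, n = 2). Gaining WT peaks were higher on each of the 12 chromosomes, by 16.8 to 29.6 points in replicate 1 and 12.5 to 23.9 points in replicate 2.

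The width of the WT peaks moved with this result. When other WT peaks were weighted to the width classes of gaining WT peaks, their overlapped share was 43.0% in replicate 1 and 44.7% in replicate 2, and the difference was 10.7 and 11.9 points (in the mean of both, 11.3 in place of 20.6). With chromosome position added it was 10.6 and 11.8 points, and with the WT peak's −log10 q added as well it was 9.66 and 11.3 points. The difference was therefore smaller but did not disappear when other WT peaks were weighted by classes of width, position and strength. The width classes were broad, and peaks of one class can still differ in width. Whether gaining and other WT peaks differed in width, position or strength within a class was not tested.

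Within width classes the difference was about the same over most of the range. In replicate 1 it was 10.4 points (5.80 to 15.8) for WT peaks under 500 bp, 9.83 (4.73 to 15.4) from 500 bp to below 1 kb, 11.6 (7.24 to 15.9) from 1 to below 2 kb and 12 (8.31 to 15.3) from 2 to below 4 kb. In replicate 2 the values were 13.3 (7.51 to 19.4), 10.9 (5.38 to 16.7), 10.1 (5.79 to 14.4) and 13.3 (9.50 to 16.9) points. At 4 kb or more, with 59 gaining and 250 other WT peaks, the replicates differed in sign: −4.45 points (−16.2 to 3.86) in replicate 1 and 10.3 points (−0.470 to 17.5) in replicate 2, and both intervals include 0. Wide WT peaks were mostly called again with or without new H3K9ac.

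**Figure D3:**
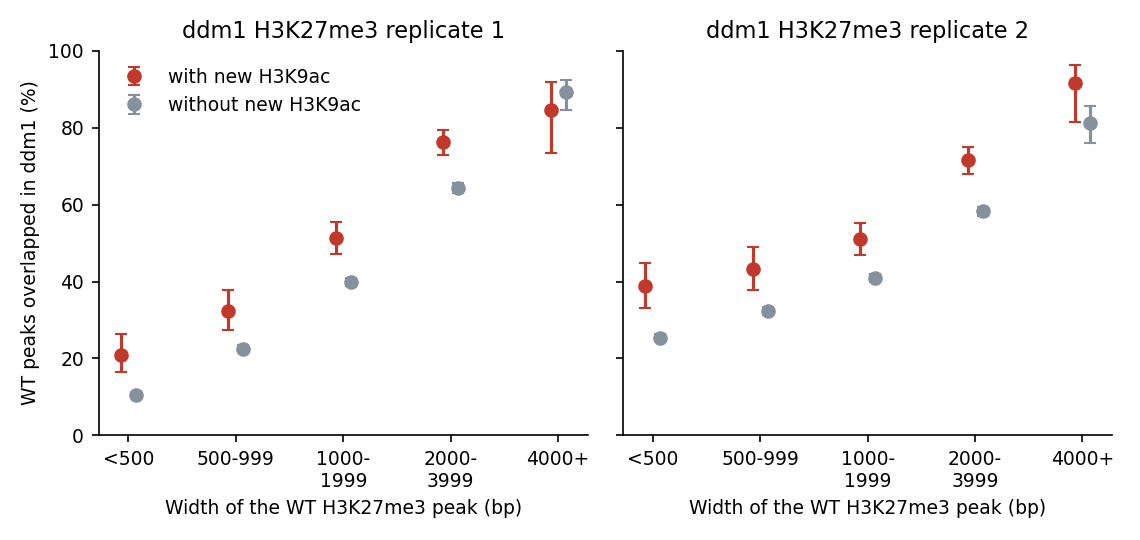
Share of WT H3K27me3 peaks overlapped by *ddm1* H3K27me3 (%, y axis) in each replicate by width class of the WT peak (bp, x axis), with and without new H3K9ac, and bars for 95% Wilson intervals (counting error only). Gaining WT peaks rise from 20.9% to 84.7% in replicate 1 and from 38.8% to 91.5% in replicate 2, and lie above other WT peaks in each class except the widest in replicate 1.

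The difference was also present with and without WT acetylation and in both chromosome regions. Among WT peaks with no WT H3K9ac it was 23.9 points (21.3 to 26.6) in replicate 1 and 19.6 (17.0 to 22.2) in replicate 2. Among those with WT H3K9ac it was 14.7 (9.37 to 19.9) and 16.4 (11.0 to 21.6) points. In the central 50% of the chromosomes, 61.4% and 72.7% of gaining WT peaks were overlapped in replicates 1 and 2, compared with 37.1% and 51.3% of other WT peaks. Outside it the shares were 51.1% and 51.0%, compared with 29.8% and 33.3%. When the comparison was limited to other WT peaks that carried no H3K9ac in either genotype, the differences were 25.6 and 20.1 points. None of these values is weighted for width, which lowered the difference over all WT peaks.

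The WT peaks fell into 4 groups by the replicates in which they were called again. Both replicates overlapped 852 gaining WT peaks (47.3%, 45.0 to 49.6) and 25.5% of other WT peaks, against 26.6% of all WT peaks. Neither replicate overlapped 667 gaining WT peaks (37.1%, 34.9 to 39.3) and 56.4% of other WT peaks, against 55.4% of all. Replicate 1 alone overlapped 115 gaining WT peaks (6.39%), and replicate 2 alone 166 (9.22%). Read in the other direction, 8.98% (8.42 to 9.57) of the WT peaks called again in both replicates gained H3K9ac, and 3.37% (3.13 to 3.63) of those called again in neither did. New H3K9ac was thus more frequent at WT peaks called again in both *ddm1* lists than at those called again in neither. These shares are not weighted for width, and wider WT peaks both held a new site and were called again more often. More than 1 in 3 gaining WT peaks overlapped no called *ddm1* H3K27me3 peak, which does not exclude signal below the threshold.

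Overlap of 1 bp says little about how much of a peak remained. By length, *ddm1* H3K27me3 covered 38.9% of the bases of gaining WT peaks in replicate 1 and 52.9% in replicate 2, compared with 26.5% and 36.3% of other WT peaks. Where a gaining WT peak was overlapped, the median covered part was 63.7% in replicate 1 and 100% in replicate 2. Those values were 61.4% and 100% for other WT peaks. The sets differ in width, and within width classes the median covered part in replicate 1 was higher for gaining WT peaks, from 70.8% compared with 70.2% at 500 bp to below 1 kb to 72.1% compared with 60.1% at 1 to below 2 kb. In replicate 2 it was 95.1% compared with 84.1% at 2 to below 4 kb, and 100% for both kinds below 1 kb. Requiring 50% of the WT peak to be covered gave differences of 15.6 and 15.8 points.

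The new sites themselves, as opposed to the WT peaks around them, were touched by *ddm1* H3K27me3 in 869 cases (42.4%, 40.2 to 44.5) in replicate 1 and 1031 cases (50.3%, 48.1 to 52.4) in replicate 2. The mean was 46.3% ± 5.59 (SD, n = 2). Over all *ddm1* H3K9ac peaks the shares were 7.50% and 24.7%, but most of those peaks lay outside WT H3K27me3, where the rule allows no site. The whole site was covered at 494 new sites (24.1%) in replicate 1 and 825 (40.2%) in replicate 2, and at 423 sites (20.6%) in both. Leaf chromatin of *ddm1* thus gave both an H3K9ac and an H3K27me3 call at the same bases at many of these sites.

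How far this set the sites apart from other H3K9ac peaks depended on the class and the replicate. New H3K9ac peaks elsewhere were touched in 6.24% (6.01 to 6.47) of cases in replicate 1 and 36.0% (35.6 to 36.5) in replicate 2, which is 36.1 points (34.0 to 38.3) and 14.2 points (12 to 16.4) less. The rule puts every new site in WT H3K27me3 and leaves the new peaks elsewhere outside it, so these gaps are partly built in. WT H3K27me3 held 49.6% of the bases of replicate 1 and 12.5% of those of replicate 2. Kept H3K9ac peaks in WT H3K27me3 were touched in 42.5% (41.2 to 43.9) and 41.2% (39.8 to 42.6) of cases. In replicate 1 the new sites differed from them by −0.179 points (−2.71 to 2.37), and in replicate 2 they were 9.07 points higher (6.51 to 11.6). By this 1 bp touch the comparison with kept peaks has no common direction in the replicates, and kept peaks were wider (538 compared with 271 bp). By length covered the new sites were higher in both, with 34.5% of their bases compared with 28.0% for kept peaks in replicate 1 and 46.1% compared with 32.3% in replicate 2. Kept peaks were covered whole in 14.6% and 20.8% of cases. More of the length of the new sites was in WT H3K27me3, 79.9% compared with 66.4% for kept peaks. The shares by length and of whole peaks are not corrected for that. Kept H3K9ac peaks outside WT H3K27me3 were rarely touched, in 0.466% and 2.19% of cases.

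**Figure D4:**
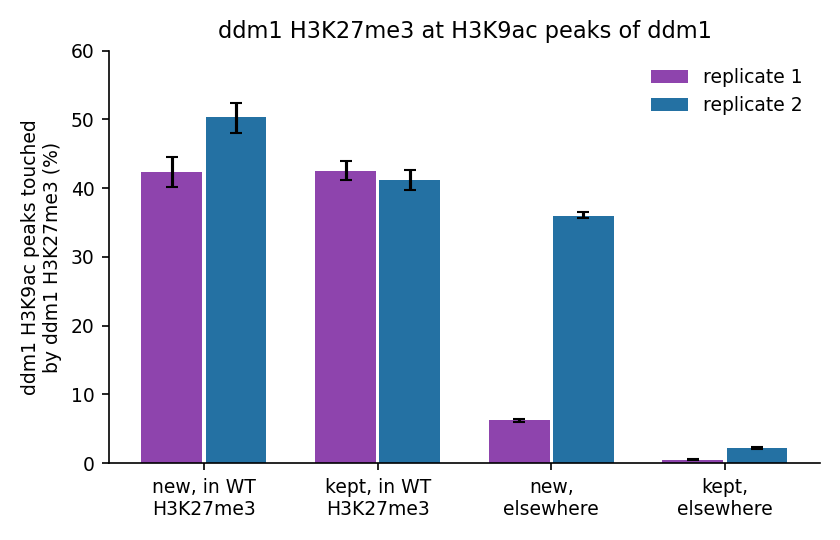
Share of *ddm1* H3K9ac peaks touched by *ddm1* H3K27me3 (%, y axis from 0) for 4 classes of H3K9ac peak (x axis) in each replicate, with bars for 95% Wilson intervals (counting error only). New sites in WT H3K27me3 reach 42.4% and 50.3%, near the kept peaks in replicate 1 (42.5%) and above all other classes in replicate 2. Both classes named elsewhere lie outside WT H3K27me3 by definition.

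Position along the chromosome separated the replicates at the new sites. In the central 50%, replicate 1 touched 46.9% (42.7 to 51.2) and replicate 2 touched 67.8% (63.6 to 71.6). Outside it the shares were close, 40.8% (38.4 to 43.3) and 44.4% (41.9 to 46.9). Other WT peaks split in a like way, with 37.1% and 51.3% overlapped in the central 50% and 29.8% and 33.3% outside it. Kept H3K9ac peaks in WT H3K27me3 were touched in 44.9% and 49.0% of cases in the central 50%, and in 42.0% and 39.3% outside it. Sites far from WT H3K9ac also differed between the replicates: more than 10 kb away the shares were 47.1% and 67.1%, and within 1 kb they were 34.4% and 38.9%. By width of the site the shares varied less, with 41.9% and 49.1% at 200 bp or less and 47.8% and 55.1% over 800 bp. The long replicate 2 peaks contributed 190 of the touched sites (9.26% of all sites), and 116 of these (61.1%) were touched in replicate 1 as well. Without replicate 2 peaks over 10 kb, 41.0% of the new sites were touched in replicate 2, 47.1% of gaining WT peaks were overlapped, and the difference from other WT peaks was 16.1 points.

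Sites touched in both replicates and in neither were alike as H3K9ac peaks and differed in where they were. The 759 sites (37.0%) touched in both had a median width of 283 bp and a median fold of 2.68, and the 910 sites (44.4%, 42.2 to 46.5) touched in neither had 264 bp and 2.63. Of the former, 29.9% (26.8 to 33.3) were in the central 50% of the chromosomes and 23.8% were within 1 kb of WT H3K9ac. Of the latter, 16.6% (14.3 to 19.1) were central and 38.2% were within 1 kb of WT H3K9ac. Sites without a called *ddm1* H3K27me3 peak were therefore more often distal and closer to existing acetylation. The 272 sites (13.3%) touched in replicate 2 alone were the most central group, at 45.6% (39.8 to 51.5), and the 110 (5.36%) touched in replicate 1 alone the least, at 14.5% (9.16 to 22.3).

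Whether H3K27me3 was thinned out right under the new acetylation was examined base by base within the gaining WT peaks. There were 595 kb of WT H3K27me3 under the new sites and 2325 kb beside them, outside any *ddm1* H3K9ac. *ddm1* H3K27me3 covered 41.3% of the bases under and 38.0% of the bases beside in replicate 1, and 50.5% under and 53.8% beside in replicate 2. The replicates lay on opposite sides, so no direction was established over all gaining WT peaks. Among gaining WT peaks overlapped in the given replicate, coverage was higher under the new site in both, at 70.2% compared with 54.4% in replicate 1 and 84.2% compared with 78.6% in replicate 2. Peak by peak, replicate 1 coverage was higher under the site in 569 of 942 such WT peaks and lower in 305, and replicate 2 coverage was higher in 324 of 981, lower in 148 and equal in 509. Limited to the central 50% of the WT peak, where margins do not count, the bases under the site were still higher by 14.1 and 5.81 points. These WT peaks were selected on the same *ddm1* lists whose coverage is given, so the values are a description. Over all gaining WT peaks the difference in that central part was 1.18 points in replicate 1 and −3.33 points in replicate 2.

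Profiles were also drawn around the sites. At the H3K9ac summit, 36.8% of new sites were covered by H3K27me3 in replicate 1 and 47.7% in replicate 2, compared with 23.1% and 32.8% at the midpoints of other WT peaks. At 1 kb from the summit the shares were 18.7% and 35.6%, compared with 9.61% and 23.4%, and at 5 kb in replicate 1 they had come together at 4.68% and 4.82%. In replicate 2 the sites were still slightly higher at 5 kb (19.5% compared with 16.1%). WT H3K27me3 itself was broader around the sites (45.5% compared with 33.6% covered at 1 kb), as the greater width of gaining WT peaks implies.

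**Figure D5:**
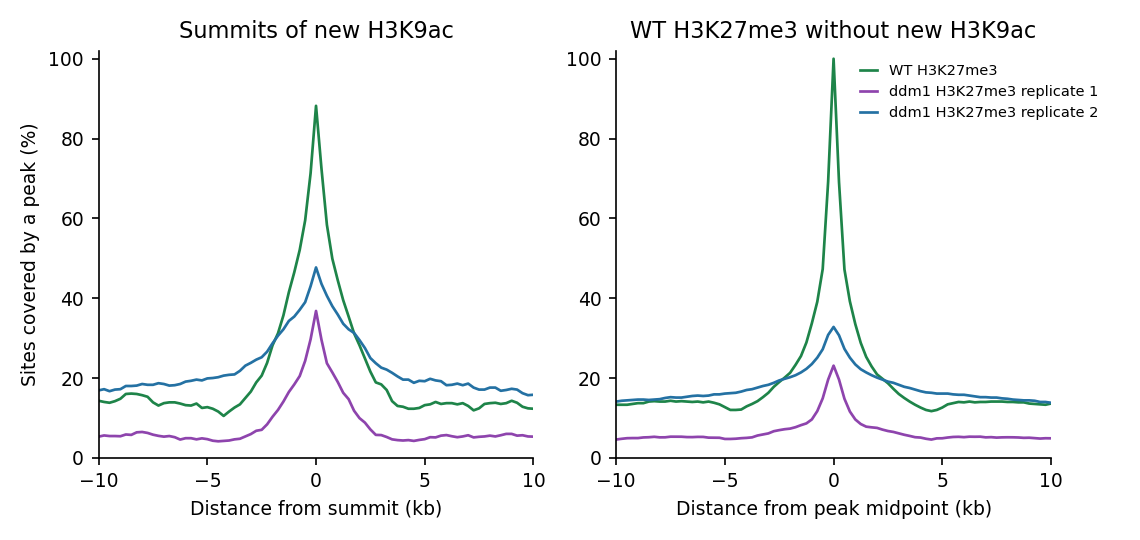
Share of sites covered by an H3K27me3 peak (%, y axis) by distance (kb, x axis) from the summits of new H3K9ac sites (left) and from the midpoints of WT H3K27me3 peaks without new H3K9ac (right), for WT and both *ddm1* replicates. At distance 0 the *ddm1* curves peak at 36.8% and 47.7% on the left and at 23.1% and 32.8% on the right. Both panels are centred on WT H3K27me3 (88.2% of summits and 100% of midpoints), so a maximum there is largely built in. The curves cannot show whether H3K27me3 was thinned at the summit.

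The *ddm1* H3K27me3 peaks that touched new sites were wider than those at other places. In replicate 1, 793 such peaks had a median width of 1165 bp and a median fold of 2.27, compared with 715 bp and 2.21 for peaks at other WT peaks only and 428 bp and 1.94 for peaks outside WT H3K27me3. In replicate 2, 874 such peaks had a median of 3229 bp and a fold of 2.50, compared with 1370 bp and 2.03, and 799 bp and 1.81. Wide peaks touch more of any set of sites, and these widths are not corrected for it.

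Marks of constitutive heterochromatin were nearly missing from the new sites, as they were from kept H3K9ac peaks in WT H3K27me3. WT H3K9me2 touched 3 of them (0.146%) and WT H3K27me1 touched 2 (0.0975%), compared with 4.41% and 1.85% of new H3K9ac peaks elsewhere and 2.44% and 1.03% of all *ddm1* H3K9ac peaks. The rule places the sites in WT H3K27me3, and 25.3% of them were central compared with 61.6% of new peaks elsewhere. These shares are not corrected for either. Of the 4952 kept peaks in WT H3K27me3, WT H3K9me2 touched 0, which allows a share of up to 0.0775%, and WT H3K27me1 touched 1. In *ddm1*, H3K27me1 touched 1 site (0.0488%, with 0.533% of all *ddm1* H3K9ac peaks) and H3K9me2 touched 0 of 2051, which allows a share of up to 0.187%. *ddm1* H3K9me2 touched 0.0693% of all *ddm1* H3K9ac peaks, so at this number of sites no difference could be detected for that mark.

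Individual regions show the range. Coordinates are those of the M82 V1.0 assembly, counted from 1, and what genes lie there was not analysed here. The strongest site was also the longest, a peak of 4679 bp on chromosome 12 from 2977711 to 2982389 with a fold of 13.04 and a −log10 q of 96.64. It shared 1058 bp with a WT H3K27me3 peak of 2614 bp (2981332 to 2983945, fold 2.14), and the nearest WT H3K9ac peak was 9010 bp away. A further new site, of 2505 bp with a fold of 10.27 (2983599 to 2986103), overlapped the other end of that WT peak, so that *ddm1* H3K9ac took up 1405 bp of it. Neither *ddm1* H3K27me3 replicate had a peak within 10 kb of the longest site. In that window *ddm1* H3K9ac covered 13.6 kb in 9 peaks, whereas WT H3K9ac covered 0.596 kb in 2 peaks, which made it a cluster of new acetylation with a short piece of WT H3K27me3 within it.

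The other strong or long sites differed in their surroundings. On chromosome 5, a site of 1355 bp (64443845 to 64445199, fold 10.62) shared 270 bp with a WT H3K27me3 peak of 1203 bp that neither replicate overlapped. Within 10 kb of it WT H3K9ac covered 4.04 kb and *ddm1* H3K9ac 3.88 kb, so acetylation there was no more extensive in *ddm1* than in WT. On chromosome 12, a site of 2702 bp (4650351 to 4653052, fold 7.57) was 14563 bp from the nearest WT H3K9ac peak, and its WT H3K27me3 peak of 1704 bp was in neither replicate. On chromosome 8, a site of 2379 bp (7035758 to 7038136, fold 3.79) was 250 bp from WT H3K9ac, had 1081 bp in WT H3K9me2, and again its WT H3K27me3 peak, of 2179 bp, was in neither replicate. The exception among the strongest 4 was on chromosome 1, where a site of 808 bp (14346572 to 14347379, fold 10.38) had 18.4% of its bases in replicate 1 and 100% in replicate 2. These sites were named for their fold or length. In all of them except the one on chromosome 1, the H3K9ac peak extended well outside a WT H3K27me3 peak that neither *ddm1* list overlapped. Over all new sites, the WT peak was in neither replicate for 744 (36.3%).

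The longest sites with both marks were named for their length, whereas the median width of sites touched in both replicates was 283 bp. The longest site with all its bases in H3K27me3 of both *ddm1* replicates was one of 1529 bp on chromosome 4 (58192198 to 58193726, fold 4.00), of which 1465 bp was WT H3K27me3. Its WT peak of 2673 bp (fold 1.61) was covered to 57.3% in replicate 1 and 72.4% in replicate 2. On chromosome 9 a site of 1173 bp (65794387 to 65795559, fold 4.03) lay in a WT peak of 2258 bp that was covered to 99.3% and 100%. On chromosome 3 a site of 1068 bp (10395522 to 10396589, fold 4.13) was entirely inside a WT peak of 2449 bp, which was covered to 80.3% and 74.2%. None of these 3 WT peaks overlapped WT H3K9ac, and the nearest WT H3K9ac peaks were 6756, 9961 and 792 bp from the sites.

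Among the WT peaks with the most new sites, 4 each, the first was one of 3795 bp on chromosome 1 (6431882 to 6435676, fold 2.28). Its new sites were 164 to 421 bp wide with folds of 2.51 to 3.68, and it was covered to 22.6% in replicate 1 and 0% in replicate 2. A WT peak of 1579 bp on chromosome 5 (2288091 to 2289669, fold 3.68) held sites of 199 to 415 bp with folds of 2.18 to 3.04. *ddm1* H3K9ac took up 1168 bp of it, and neither replicate had an H3K27me3 peak there.

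The limits of the rule were drawn by small distances. The member with the least WT H3K27me3 was a 442 bp peak on chromosome 1 (77296562 to 77297003, fold 2.88) with 1 bp in a WT peak, and 21 members had under 20 bp. The member nearest to WT acetylation was a 175 bp peak on chromosome 6 (27058750 to 27058924, fold 2.67) that abutted a WT H3K9ac peak, and 26 members were within 50 bp of one. Just outside, a 171 bp new H3K9ac peak on chromosome 1 (5091905 to 5092075, fold 2.85) abutted a WT H3K27me3 peak without sharing a base, and 63 such new peaks were within 50 bp and 1486 (3.51%) within 1 kb of one. Limiting the sites to those with no WT H3K9ac within 1 kb left 1424 and gave differences of 26.4 and 23.4 points between gaining and other WT peaks.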

How the data were processed

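The data were peak lists, 1 per library, from ChIP-seq of tomato leaves. According to their methods and processing notes, the authors trimmed reads with Trimmomatic (0.38), aligned them with Bowtie2 (2.3.5 in the processing notes) to the M82 V1.0 assembly and used SAMtools (1.9). They called peaks with MACS3 at a q-value of 0.05 with reads extended to 150 bp. The control used and any pooling of replicates were not given in the sources used here. Lists of H3K27me3 and H3K9me2 had the broad layout and those of H3K9ac and H3K27me1 the narrow layout with a summit. For each peak the authors deposited a fold enrichment over local background (a ratio), a −log10 p and a −log10 q (at the summit, or as means over broad regions), and a whole-number score that the caller computes from q. Here they served to rank and filter the peaks of one list and to describe them. The lowest −log10 q was 1.00 to 1.08 in the broad lists and 1.30 to 1.34 in the narrow lists. Broad lists thus held regions whose deposited q was above 0.05. The lists hold no read totals, so the depth is unknown, and a peak that was not called may still have signal below the threshold.

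Samples were grouped by the genotype and antibody in their labels. Peaks on the 12 numbered chromosomes were compared by shared bases, with 1 bp as the minimum, and each chromosome was taken to reach to the farthest peak of any list (802 Mb over all). With 1 or 2 libraries per group, no significance test was run. Overlap counting was tested on simulated data. Python 3.11.15, NumPy 2.4.6, pandas 2.3.3, SciPy 1.17.1 and matplotlib 3.10.9 were used. The members and the comparisons were chosen with earlier results of these data known. Named regions were the 4 members with the highest fold among those of at least 400 bp, the 4 longest, the first 2 of the WT H3K27me3 peaks with the most members, the 3 longest with all bases in both replicates, the 3 longest with a WT peak in neither, and the members and the non-member nearest to the limits of the rule. Ties went to the lower chromosome number and start. The alternatives were stricter overlap, position of the summit, distance to WT H3K9ac, a q of 0.01, equal list sizes, removal of long replicate 2 peaks, weighting by width and position, and each replicate alone. No sequences were printed, since no M82 genome was used here.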

Additional observations from a re-analysis of the deposited data

Results flagged for a closer look

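Peaks off the numbered chromosomes entered no comparison. Among 38 *ddm1* H3K9ac peaks on unplaced contigs, 4 met the rule for new H3K9ac in WT H3K27me3, on 2 contigs. On the numbered chromosomes 2051 of 76513 *ddm1* H3K9ac peaks met it. The contig count is given as a value only.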

How the results depend on the processing

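All 38 alternative values of the difference between gaining and other WT peaks were above 0. They give the mean and each replicate for the same settings, so they are not independent. Single width classes are not among them, and at 4 kb or more the difference in replicate 1 was −4.45 points. Leaving out either replicate gave 53.7 to 56.6% for gaining WT peaks, 31.5 to 37.5% for other WT peaks, 19.0 to 22.2 points for the difference and 42.4 to 50.3% for new sites touched. With the choice of sites changed, the share of gaining WT peaks overlapped (mean of both replicates) was 58.1% when 50% of the H3K9ac peak had to be in WT H3K27me3, 58.2% when its summit had to be, 59.6% with no WT H3K9ac within 1000 bp, 50.5% at a q of 0.01 and 57.9% with lists of equal size. The difference was 23.5, 23.7, 24.9 and 18.2 points for the first 4 of these. Equal list sizes left 637 sites, with a median width of 462 bp. The median width was 258 bp with 50% of the peak inside and 284 bp without WT H3K9ac within 1000 bp, and the latter had 27.5% of sites in the central 50%. Without replicate 2 peaks over 10 kb, 50.4% of gaining WT peaks were overlapped. With 50% of the WT peak to be covered, the shares were 41.0% and 25.3% and the difference was 15.7 points. Weighting other WT peaks by width, by width and position, and by these and strength gave shares of 43.9%, 43.9% and 44.7% and differences of 11.3, 11.2 and 10.5 points. The last weighting, and the comparison without any H3K9ac, were chosen after seeing the data. The cause of these shifts was not tested. No paired analysis was possible because only *ddm1* H3K27me3 had numbered replicates and no test was made. Depth limits all calls to peaks above the threshold.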
